A study of Mus musculus with 6 samples.

Results

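A set of 6 genes that mark or direct the tendon lineage was followed through 3 Achilles tendon RNA-seq libraries. They are the transcription factor genes Scx, Mkx and Six2, the transcription cofactor genes Eya1 and Eya2, and Tnmd, which encodes a membrane protein of tendon cells. They were chosen by name, and all 6 were found among the 53726 features of the count table once repeated lines were dropped. The mice were 4 weeks old and carried 1 of 3 genotypes. Control mice were Dicer f/f, with both Dicer alleles flanked by loxP sites and no Cre. ScxHt mice were ScxCre/+ with Dicer +/+, and Dicer cKO mice were ScxCre/+ with Dicer f/f. The ScxCre allele is a knock-in at the Scx locus and acts in cells that express Scx. The paper describes it as able to inactivate endogenous Scx, and equates mice homozygous for it with Scx knockouts. Both ScxHt and Dicer cKO mice thus carried 1 Scx allele with Cre and 1 without it. Dicer was floxed only in Control and Dicer cKO mice. One library was made per genotype, so no value below has a replicate and no test between genotypes was possible.

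Scleraxis, the product of Scx, is a basic helix-loop-helix (bHLH) factor that pairs with E proteins, binds E-box motifs and is the earliest known marker of tendon progenitors. Mohawk, the product of Mkx, is an atypical homeobox factor of the TALE class that acts later, on collagen genes and fibril growth. Tenomodulin, the product of Tnmd, is a type II membrane protein with a BRICHOS domain, and Tnmd is known to depend on Scx in developing tendon. Six2 belongs to the sine oculis homeobox family, whose proteins bind DNA, and Eya proteins are their coactivators. Six2, Eya1 and Eya2 were described in developing limb tendons, but both families are also known for their part in skeletal muscle.

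One pair of sequences is shown because the study tested miR-135a in tendon fibroblasts, and a search of the 6 genes' 3′ UTRs for matches to its seed found 1, in Eya1. The paper already lists Eya1 as a candidate target of miR-135a. Its list holds genes upregulated in Dicer cKO that the database TargetScan predicts as targets. Mature miR-135a-5p (RefSeq, GRCm38.p6) is made from Mir135a-1 (chr9:106154140-106154162, plus strand) and from Mir135a-2 (chr10:92072141-92072163, minus strand). In its sequence the seed, bases 2 to 8, is in capitals. In the window of the Eya1 3′ UTR (GRCm38, chr1:14170680-14170708, minus strand, transcript ENSMUST00000027066.12) capitals mark the 7 bases that pair with this seed.
mmu-miR-135a-5p: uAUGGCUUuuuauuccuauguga
Eya1 3′ UTR window: ccagtgaaagtAAGCCATgagaatgttct
The match began at base 219 of a 1962-base 3′ UTR. No match of 7 bases was found in the annotated 3′ UTRs of Scx (329 bases), Mkx (2347 bases), Tnmd (172 bases), Six2 (906 bases) or Eya2 (613 bases). Of 10958 analysed genes with an annotated 3′ UTR, 22.9% held a match of 7 or 8 bases. This share also counts matches to 6 seed bases with an adjoining A, and is thus wider than the kind of match in Eya1. A match in 1 of 6 genes is near this wider background. In the small RNA-seq libraries, Mir135a-1 had 38 counts in Control, 13 in ScxHt and 16 in Dicer cKO, out of 10986541, 8437993 and 8435829 counts. The mature sequence is the same at both loci, so reads cannot be assigned to one of them, and whether miR-135a acted on Eya1 in these tendons was not tested.

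The RNA-seq counts added up to 16244232 in Control, 15769301 in ScxHt and 14959399 in Dicer cKO. Without repeated lines these totals were 16218733, 15743740 and 14936241, to which the shares of counts below refer. The 6 genes together held 0.0860%, 0.119% and 0.0818% of them. The floxed gene Dicer1 had 1919 reads in Control, 2025 in ScxHt and 1621 in Dicer cKO, a Dicer cKO/Control ratio of 0.877 (0.821 to 0.938). Most Dicer1 reads thus remained in the Dicer cKO library. The tissue also holds cells without Cre, and counts of the whole gene do not separate recombined from intact alleles. Which cells or alleles gave these reads was not tested. The 20 skeletal muscle genes examined held 6.75% of the Control, 3.81% of the ScxHt and 11.6% of the Dicer cKO counts, none of them at 0, so all 3 libraries held muscle RNA in unequal amounts. The 10 Schwann cell genes held 0.0237%, 0.0309% and 0.0765%, and none of them was at 0. Tnmd, the tendon marker, was among the 67 features with the highest RPKM in each library.

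Levels of different genes were compared per transcript length, as the deposited RPKM, in which a count is divided by feature length and library total. Tnmd stood far above the other 5 genes, with an RPKM of 482 in Control, 723 in ScxHt and 478 in Dicer cKO. It ranked 55th, 43rd and 67th by RPKM among the features with reads. Mkx followed at 32.8, 40.3 and 31.4 RPKM. Scx was at 32.3 RPKM in Control, 21.7 in ScxHt and 12.4 in Dicer cKO. Scx and Mkx were thus level in Control, where their counting intervals overlapped, and in the Dicer cKO library Mkx was 2.54-fold above Scx. By rank, Scx moved from 899th in Control to 1703rd in ScxHt and 3061st in Dicer cKO, whereas Mkx stayed between 787th and 973rd.

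Six2 and the Eya genes were much less abundant. Eya2 was at 2.37, 1.54 and 2.14 RPKM, Eya1 at 0.733, 0.845 and 1.88 RPKM, and Six2 at 0.145, 0.329 and 0.631 RPKM. The lowest of the first 3 genes, Scx, was 13.7-fold above Eya2 in Control, 14.1-fold in ScxHt and 5.77-fold in Dicer cKO. The order Tnmd, Mkx, Scx, Eya2, Eya1, Six2 was the same in every library. Only 2 neighbours in it had overlapping counting intervals, Mkx and Scx in Control and Eya2 and Eya1 in Dicer cKO. Six2 rested on 5 to 20 reads per library, too few for any firm statement on its level.

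**Figure D1:**
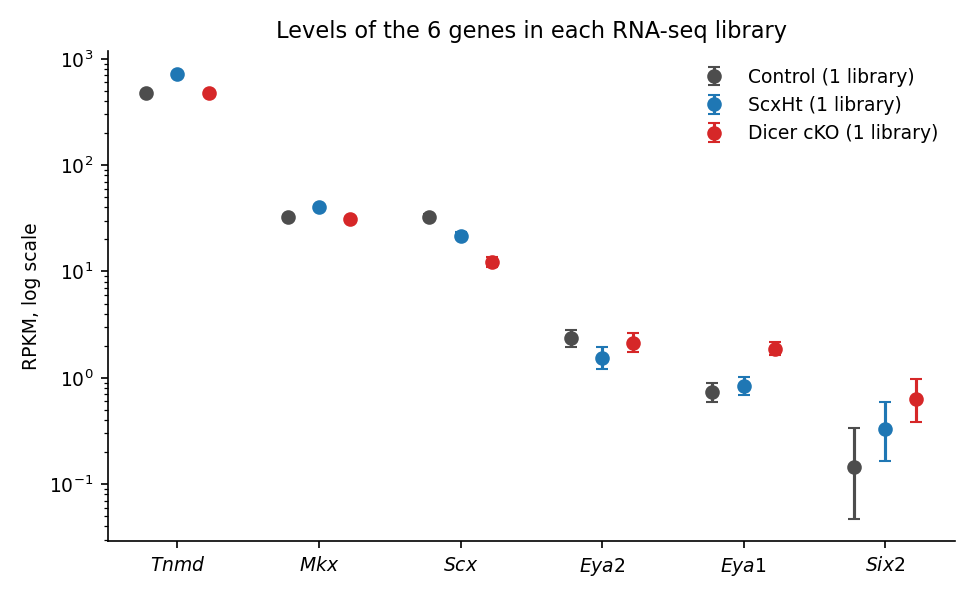
RPKM (log axis) of each gene in the Control, ScxHt and Dicer cKO libraries, 1 point per library, with the exact 95% Poisson interval of its read count as bar (smaller than the point for the abundant genes). Tnmd, Mkx and Scx lie at or above 12.4 RPKM and Eya2, Eya1 and Six2 at or below 2.37 RPKM in every library, and Scx steps down from Control to ScxHt to Dicer cKO.

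For each comparison, the ratio of counts divided by DESeq2 size factors of both libraries was taken. The intervals are 95% Clopper-Pearson intervals and cover counting error only. They say nothing of the difference between mice, and reads copied by PCR are not independent molecules, so they are too narrow even for counting. A gene needed a baseMean (mean normalized count of both libraries) above 50 and was called higher above a ratio of 1.67 and lower below 0.60. Of the 6 genes, 5 passed the minimum in each comparison, and Six2 did not. In a piece of tissue, fewer cells of a type and less RNA per cell cannot be told apart.

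In Dicer cKO against Control, Scx was the gene past the lower limit and Eya1 the gene past the upper limit. Over all 13404 genes analysed, 4.19% were called lower and 3.87% higher. Of the 5 genes, 4 had an interval off 1: Eya1 lay above it, and Scx, Mkx and Tnmd lay below it. With scaling to total counts, also without muscle markers, the Mkx and Tnmd intervals reached 1. Such intervals were common, at 21.6% of all genes analysed above 1 and 28.5% below 1. The median ratio of the 5 genes was 0.913.

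In ScxHt against Control, none of the 5 genes was called, beside 3.03% of 13462 genes called higher and 4.71% called lower. Mkx and Tnmd had intervals above 1 and Scx and Eya2 below 1, where 26.4% and 23.8% of all genes did. Scx and Eya2 lay just above the limit of 0.60, at 0.623 and 0.605. The median of the 5 was 1.07.

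In Dicer cKO against ScxHt, which share the ScxCre allele and differ in the floxed Dicer alleles, Scx was again called lower and Eya1 higher, beside 5.68% and 7.68% of 13455 genes. Mkx, Tnmd and Scx had intervals below 1, where 30.6% of all genes did, and Eya1 and Eya2 above 1, where 24.9% did. The median of the 5 genes was 0.814. The 3 comparisons use the same 3 libraries in pairs, so they are not independent of each other.

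**Figure D2:**
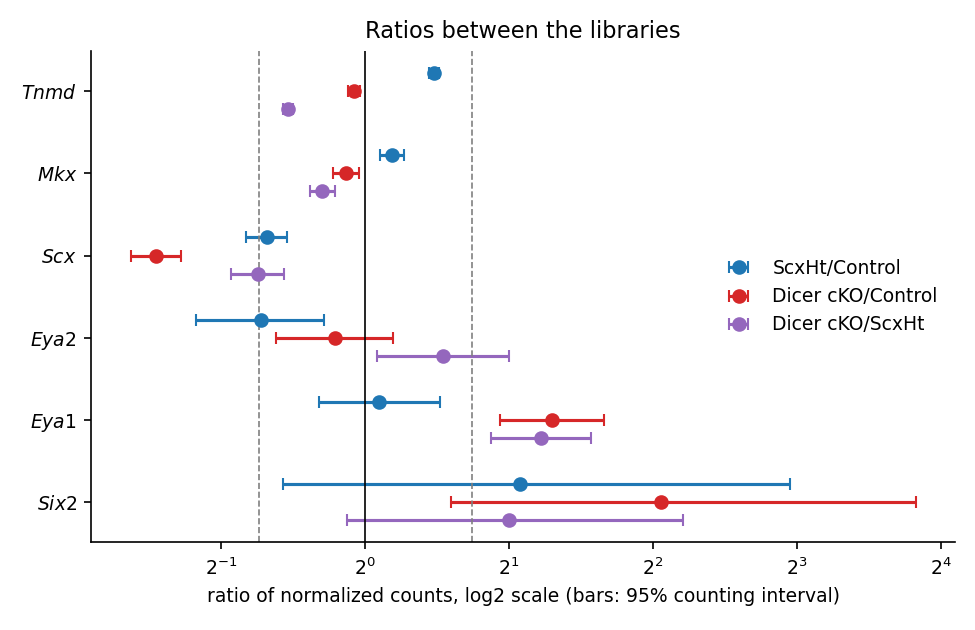
Ratio of normalized counts (log2 axis) for the 6 genes in the 3 comparisons, with 95% counting intervals as bars, a line at 1 and dashed lines at 0.60 and 1.67. Scx in Dicer cKO/Control is the point farthest to the left, at 0.365, and the Six2 intervals are the widest, spanning 1.51 to 14.2 in Dicer cKO/Control.

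Scx had 1055 reads in Control, 686 in ScxHt and 371 in Dicer cKO, the only gene of the 6 whose normalized count was lower in each library of that order by more than counting error. Normalized over the 3 libraries, these were 1052, 647 and 388 reads. The ScxHt/Control ratio was 0.623 (0.565 to 0.686), between libraries that differ in the ScxCre allele at this locus and in the loxP sites of Dicer. The Dicer cKO/Control ratio of 0.365 (0.324 to 0.411) lay at percentile 0.41 of the genes analysed. Against the ScxHt library, which also carries the ScxCre allele, the Dicer cKO/ScxHt ratio was 0.596 (0.524 to 0.677). That last interval includes the limit of 0.60, and the ratio fell on either side of the limit between scalings, from 0.570 to 0.615. The values thus put Scx lower in both ScxCre libraries than in Control, and lower in Dicer cKO than in ScxHt. Both ScxCre libraries come from mice with an allele that the paper describes as able to inactivate Scx. The part of this allele in the ratios to Control was not tested.

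Scx lies on chromosome 15 (chr15:76457452-76459458, plus strand, GENCODE vM21 on GRCm38), inside an intron of Bop1 (chr15:76452989-76477277, minus strand), a ribosome biogenesis gene. No exon base of Scx is shared with Bop1. Scx is annotated here as 1 block of 2007 bases, because a transcript with a retained intron joins its exons, and the deposited RPKM values imply the same length, so intronic Scx reads were counted with exonic ones. Bop1 had 154 reads in Control, 299 in ScxHt and 267 in Dicer cKO. It was therefore higher in both libraries with the ScxCre allele, at ScxHt/Control 1.86 (1.53 to 2.27) and Dicer cKO/Control 1.80 (1.47 to 2.21), and differed by less than counting error between them, at 0.984 (0.831 to 1.16).

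The surroundings of Scx were viewed after these values were seen. Within 200000 bases on either side lay 25 protein-coding genes, of which 18 had a mean count above 50. Bop1 was the only one past 1.67 in ScxHt/Control and the only one in Dicer cKO/Control. The other 17 had ratios of 0.558 to 1.55 (median 0.941) in ScxHt/Control and of 0.547 to 1.13 (median 0.967) in Dicer cKO/Control. Mroh1, the nearest gene that does not overlap Scx, had 394, 422 and 358 reads. The strand setting of the counting is not given in the sources used here, and whether reads from the ScxCre allele enter the counts of Scx or Bop1 was not tested.

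Tnmd was by far the largest of the 6 in reads, with 10586 in Control, 15431 in ScxHt and 9668 in Dicer cKO. The ScxHt library was the high one, and Control and Dicer cKO lay close together. The ScxHt/Control ratio was 1.40 (1.36 to 1.43), at percentile 90.9 of the genes analysed, and Dicer cKO/ScxHt was 0.690 (0.673 to 0.708). The Dicer cKO/Control ratio was 0.948 (0.922 to 0.975), near the middle of all genes at percentile 44.9, and scalings moved it between 0.948 and 0.992. Tnmd (chrX:133850980-133865577, plus strand) overlaps no other annotated gene, and its nearest neighbour Tspan6 had 128, 136 and 117 reads.

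Tnmd thus did not follow Scx across the libraries. Per 1000 Tnmd reads of the same library there were 99.7 Scx reads in Control, 44.5 in ScxHt and 38.4 in Dicer cKO. Such a ratio within a library does not depend on how libraries are scaled, and these pairs of genes were set side by side with earlier results known. The Scx to Tnmd ratio was 0.446 times that of Control in ScxHt (0.403 to 0.493) and 0.385 times in Dicer cKO (0.340 to 0.435). Between ScxHt and Dicer cKO it differed far less, by a factor of 0.863 (0.757 to 0.983).

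Mkx had 2094 reads in Control, 2492 in ScxHt and 1841 in Dicer cKO, a narrow range. The ScxHt/Control ratio was 1.14 (1.08 to 1.21), Dicer cKO/Control was 0.913 (0.857 to 0.972) and Dicer cKO/ScxHt was 0.814 (0.766 to 0.865). All 3 stood well inside the limits, and their percentiles were 70.3, 38.1 and 24.6. Mkx went with Tnmd in the order of the libraries, ScxHt first and Dicer cKO last. There were 198 Mkx reads per 1000 Tnmd reads in Control, 161 in ScxHt and 190 in Dicer cKO, and the Control and Dicer cKO values differed by less than counting error, with a factor of 0.963 (0.898 to 1.03).

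Against Mkx, Scx stood apart in the same way as against Tnmd. Per 1000 Mkx reads there were 504 Scx reads in Control, 275 in ScxHt and 202 in Dicer cKO. The factor was 0.546 (0.487 to 0.612) from Control to ScxHt, 0.400 (0.349 to 0.458) from Control to Dicer cKO and 0.732 (0.635 to 0.844) from ScxHt to Dicer cKO. In Mkx (chr18:6934518-7004780, minus strand), GENCODE vM21 has 201 exon bases shared with the noncoding gene AC148004.2, for which no counts were found under that name. The deposited RPKM values imply an Mkx length of 3925 bases, against 4095 exon bases in GENCODE vM21, so the gene models differ. Whether the overlap touched the Mkx counts was not tested.

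**Figure D3:**
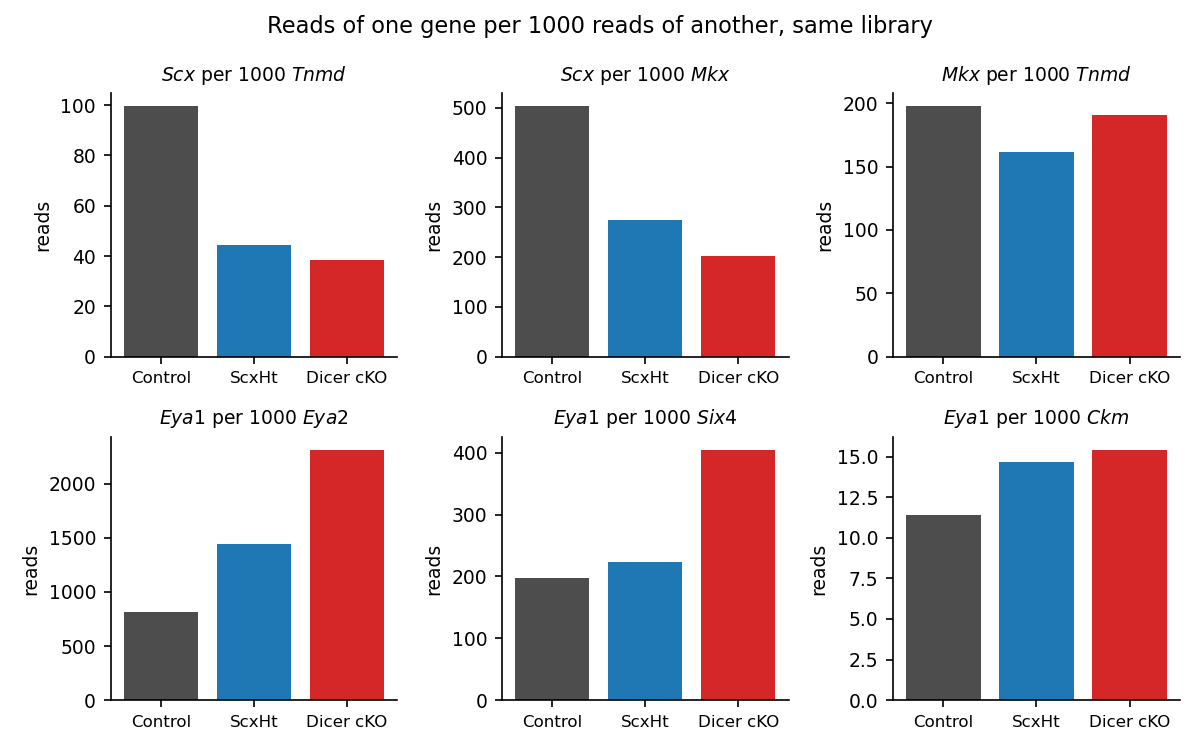
Reads of the first gene per 1000 reads of the second in the same library, for 6 pairs of genes, 1 bar per library, without intervals. Scx per 1000 Tnmd reads is 99.7 in Control against 44.5 and 38.4 in the ScxCre libraries, and Eya1 per 1000 Eya2 reads is highest in Dicer cKO, at 2316.

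The matrix genes on which these factors are known to act were lower in Dicer cKO than in both other libraries. Of 13 listed genes (collagens, small proteoglycans, tenascin, thrombospondin and Comp), 7 were called lower in Dicer cKO/Control, with a median ratio of 0.574. In ScxHt/Control, 1 gene (Bgn) was called higher and the median was 1.28. There, 11 had intervals above 1, and Col1a1 (0.703) and Col1a2 (0.890) had intervals below 1. Both were also lower in Dicer cKO than in ScxHt, at 0.783 and 0.656, and so shared the order of libraries seen for Scx. In Dicer cKO/ScxHt, 10 were called lower, with a median of 0.518. The ratios of Mkx and Tnmd in Dicer cKO/Control were above those of all 13 matrix genes, which ran from 0.455 (Fmod) to 0.875 (Bgn). The ratio of Scx was below all 13.

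In Dicer cKO/ScxHt, Mkx was again above all 13 and Tnmd above 12 of 13, whereas Scx at 0.596 was above 10 of them. In ScxHt/Control, Scx was below all 13 matrix genes, Mkx above 3 and Tnmd above 10. Within libraries, Tnmd reads per 1000 reads of Fmod, the fibril-binding proteoglycan fibromodulin, were 107 in Control, 138 in ScxHt and 222 in Dicer cKO. Those of Mkx were 21.1, 22.3 and 42.3, and those of Scx were 10.6, 6.15 and 8.53. Relative to Fmod reads, those of Mkx in Dicer cKO were 1.89-fold (1.78 to 2.01) and those of Tnmd 1.61-fold (1.56 to 1.65) the ScxHt values. Scx reads per Fmod read were 1.39-fold (1.22 to 1.57) those of ScxHt and 0.803-fold (0.713 to 0.904) those of Control. Against Col1a1, the main fibril collagen gene, the Dicer cKO/ScxHt values lay on the other side of 1, at 0.881 (0.859 to 0.904) for Tnmd and 0.761 (0.671 to 0.863) for Scx, so this direction depended on the matrix gene used. From Control to Dicer cKO, Tnmd per Col1a1 read was 1.75-fold (1.70 to 1.80) and Scx 0.674-fold (0.599 to 0.759), on the same side of 1 as against Fmod. From Control to ScxHt, Scx per Col1a1 read was 0.886-fold (0.80 to 0.98), nearer to 1 than Scx per Fmod read, at 0.579-fold (0.525 to 0.637).

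**Figure D4:**
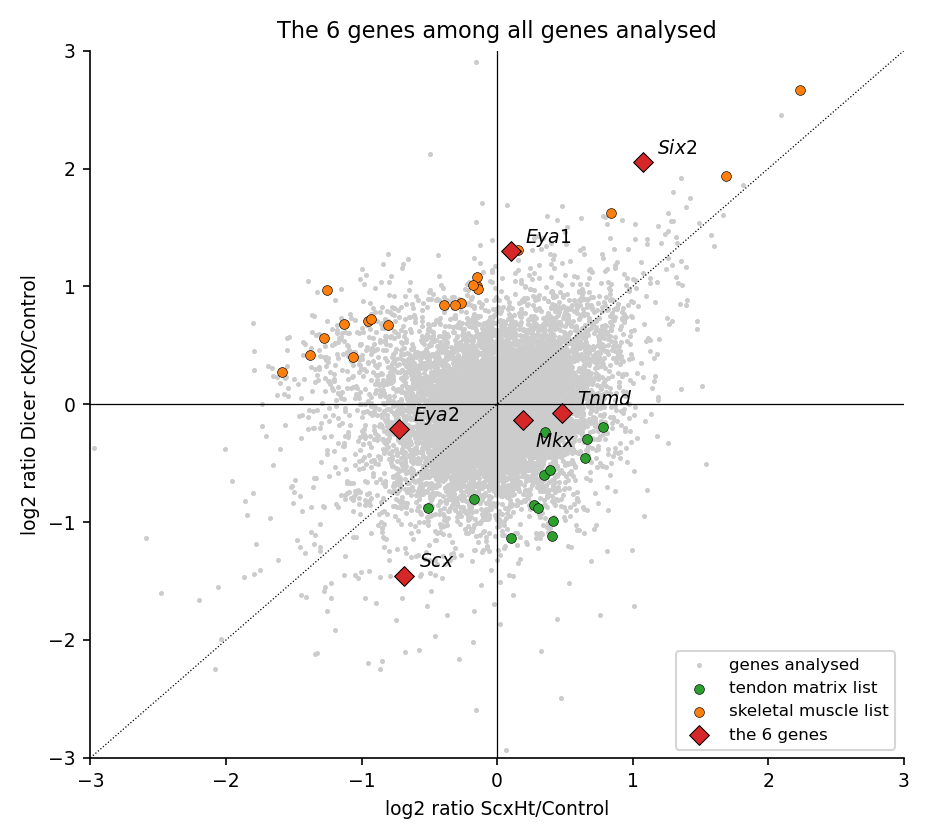
Log2 ratio ScxHt/Control (x axis) against log2 ratio Dicer cKO/Control (y axis) for the 6 genes (diamonds), 13 tendon matrix genes, 20 skeletal muscle genes and all 13149 genes analysed in both comparisons (grey), with a dotted line where both ratios are equal. Of the genes, 6 lie outside the axes, and both axes share the Control library. Scx sits at the lower left, lower on both axes than Tnmd, Mkx and all 13 matrix genes, while Eya1 sits beside a muscle gene. The matrix genes Col1a1 and Col1a2 also lie below 0 on both axes.

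Eya1 had 93 reads in Control, 104 in ScxHt and 220 in Dicer cKO. The Dicer cKO library was the high one, and the other 2 did not differ beyond counting error. The Dicer cKO/Control ratio was 2.46 (1.92 to 3.17), at percentile 99.3, and Dicer cKO/ScxHt was 2.33 (1.84 to 2.97), at percentile 97.3. The ScxHt/Control ratio was 1.07 (0.802 to 1.43). Eya1 spans chr1:14168954-14310235 on the minus strand. Its nearest protein-coding neighbour Msc, which encodes the bHLH factor musculin, lies 443111 bases away and had 9, 11 and 48 reads.

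Muscle and Schwann cell genes were also highest in the Dicer cKO library. Of the 20 muscle genes, 12 were called higher in Dicer cKO/Control (median 1.81), 3 higher and 9 lower in ScxHt/Control (median 0.783), and 18 higher in Dicer cKO/ScxHt (median 2.39). Eya1 reads per 1000 reads of Ckm, muscle creatine kinase, were 11.4 in Control, 14.7 in ScxHt and 15.4 in Dicer cKO. Relative to Ckm, Eya1 had a factor of 1.35 (1.06 to 1.75) in Dicer cKO/Control, of 1.05 (0.827 to 1.34) in Dicer cKO/ScxHt and of 1.29 (0.962 to 1.73) in ScxHt/Control. Relative to the giant sarcomere gene Ttn, Eya1 was at 0.135, 0.316 and 0.207 reads per 1000. These gave a factor of 1.53 (1.20 to 1.96) in Dicer cKO/Control, of 2.34 (1.77 to 3.10) in ScxHt/Control and of 0.655 (0.519 to 0.828) in Dicer cKO/ScxHt. Set against Ttn, Eya1 was thus lower in Dicer cKO than in ScxHt, unlike its normalized count. In Dicer cKO/Control, Mylpf (2.47), Actn3 (3.08), Pvalb (3.84) and Myh4 (6.37) had ratios above the 2.46 of Eya1. The other listed muscle genes had ratios below it, so the direction of Eya1 relative to muscle depended on the gene used.

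Of the 8 genes listed for myogenic regulators and satellite cells, 2 (Myf6 and Cdh15) passed the minimum in each comparison. Neither was called in Dicer cKO/Control (median 1.27), both were lower in ScxHt/Control (median 0.503) and both were higher in Dicer cKO/ScxHt (median 2.56). Below the minimum, Myod1 had 8, 11 and 32 reads and Pax7, the satellite cell marker, had 14, 11 and 51 reads. Relative to these few Pax7 reads, Eya1 had a factor of 0.649 (0.316 to 1.26) in Dicer cKO/Control. The factor was 0.456 (0.206 to 0.934) in Dicer cKO/ScxHt and 1.42 (0.567 to 3.65) in ScxHt/Control. Of the Schwann cell genes, 8 passed the minimum in Dicer cKO/Control with 7 called higher (median 8.05), 5 passed in ScxHt/Control with none called (median 0.899), and 9 passed in Dicer cKO/ScxHt with 7 higher (median 7.82). The part of muscle or nerve RNA in the Eya1 ratio was not tested.

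Eya2 had 114 reads in Control, 72 in ScxHt and 95 in Dicer cKO, with the ScxHt library lowest. The ScxHt/Control ratio was 0.605 (0.444 to 0.820), at percentile 4.89, and scalings moved it between 0.598 and 0.651, on both sides of the limit. The Dicer cKO/Control ratio of 0.865 (0.652 to 1.15) was within counting error of 1, and Dicer cKO/ScxHt was 1.45 (1.06 to 2.0). Eya2 lies on chr2:165595032-165771727, plus strand, and its neighbour Zmynd8 had 1306, 1379 and 1302 reads.

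Both Eya genes differed from each other in pattern. Per 1000 Eya2 reads there were 816 Eya1 reads in Control, 1444 in ScxHt and 2316 in Dicer cKO. The factor was 1.77 (1.16 to 2.71) from Control to ScxHt, 2.84 (1.94 to 4.16) from Control to Dicer cKO and 1.60 (1.07 to 2.40) from ScxHt to Dicer cKO. These are values of read counts and not of molecules, since Eya1 has 7808 and Eya2 2963 exon bases. Per length, Eya1 stood at 0.310 of Eya2 in Control and at 0.879 in Dicer cKO.

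Six2 had 5 reads in Control, 11 in ScxHt and 20 in Dicer cKO. Its Dicer cKO/Control ratio was 4.15 (1.51 to 14.2), ScxHt/Control was 2.11 (0.675 to 7.74) and Dicer cKO/ScxHt was 2.0 (0.915 to 4.63). Only the first of these intervals lay off 1. Six2 (chr17:85684277-85688274, minus strand) stood below the minimum baseMean in all 3 comparisons, so it was not called. Its neighbour Six3, a factor of the eye and forebrain, had 0 reads in every library, which allows up to 3 reads in each.

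The other 9 genes of the sine oculis homeobox, Eya and Dach families formed a more even group. Of these, 6 passed the minimum, and none was called in Dicer cKO/Control, where ratios ran from 0.897 (Eya4) to 1.20 (Six4) with a median of 1.02. Eya4 had more reads than Eya1 and Eya2 in all libraries, 1113, 1195 and 961, and Eya3 had 502, 476 and 473. Six4, a homeobox partner of Eya proteins, had 469, 465 and 543 reads. Eya1 differed against Six4 as well, from 198 reads per 1000 Six4 reads in Control to 224 in ScxHt and 405 in Dicer cKO, a factor of 2.04 (1.55 to 2.71) from Control to Dicer cKO. Dach1, a corepressor that works with these factors, was called lower in ScxHt/Control at 0.563 (list median 0.929) and higher in Dicer cKO/ScxHt at 1.90 (list median 1.19).

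The partners of scleraxis are the E proteins, and Id proteins bind these and keep them from DNA. All 7 genes of this list passed the minimum. The E protein genes Tcf3, Tcf4 and Tcf12 had Dicer cKO/Control ratios of 0.887, 0.902 and 0.893. Id1 had 524, 974 and 332 reads, Id2 505, 682 and 283, Id3 314, 594 and 280, and Id4 122, 94 and 100. Id2 was called lower in Dicer cKO/Control (list median 0.887), Id1 and Id3 higher in ScxHt/Control (list median 1.05), and all of Id1, Id2 and Id3 lower in Dicer cKO/ScxHt (list median 0.865). Id4 was not called in any comparison, and its ScxHt/Control ratio was 0.738 (0.558 to 0.974).

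Among 7 bHLH relatives of Scx, 3 passed the minimum in Dicer cKO/Control and ScxHt/Control and 2 in Dicer cKO/ScxHt. Twist2, a bHLH factor of mesenchymal cells, had 111, 69 and 30 reads and was called lower in Dicer cKO/Control at 0.281 (0.181 to 0.423) and in ScxHt/Control at 0.595 (0.434 to 0.811). Scx and Twist2 thus shared the order of the libraries. Hand2, with 139, 241 and 66 reads, was called lower in Dicer cKO/Control at 0.493 and in Dicer cKO/ScxHt at 0.302, and Twist1, with 578, 647 and 410 reads, was not called. The list medians were 0.493 in Dicer cKO/Control, 1.07 in ScxHt/Control and 0.459 in Dicer cKO/ScxHt.

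The TALE relatives of Mkx, namely the Irx, Meis, Pbx, Pknox and Tgif genes, differed little. Of 17 genes, 9 passed the minimum and none was called in any comparison, with medians of 0.925 in Dicer cKO/Control, 0.981 in ScxHt/Control and 1.06 in Dicer cKO/ScxHt. Of the BRICHOS relatives of Tnmd, Itm2a, Itm2b and Itm2c passed the minimum and none was called (medians of 0.810, 1.17 and 0.670 in the same order of comparisons). Cnmd, which encodes chondromodulin, the closest relative of tenomodulin, had 31, 51 and 20 reads.

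TGF-beta signalling, which is known to induce Scx, was represented by 11 ligands, receptors and Smads, all past the minimum. Tgfbr3, the coreceptor betaglycan, had 8009, 7791 and 3985 reads and was the only gene called, lower in Dicer cKO/Control at 0.517 and in Dicer cKO/ScxHt at 0.564. The list medians were 0.866 in Dicer cKO/Control, 1.10 in ScxHt/Control and 0.758 in Dicer cKO/ScxHt. Tgfb2 and Tgfb3, the ligands of tendon development, had Dicer cKO/Control ratios of 0.714 and 0.782, and so did not reach the limit that Scx passed.

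Of 8 other connective tissue factors, 5 passed the minimum in Dicer cKO/Control and 6 in the other comparisons. Egr1, an immediate early factor that acts on tendon collagen genes, had 2217, 635 and 772 reads and was called lower in both ScxCre libraries against Control, at 0.274 in ScxHt and 0.362 in Dicer cKO. Sox9, the cartilage factor that is present with Scx in cells of tendon insertions, had 527, 400 and 130 reads and was called lower in Dicer cKO/Control at 0.256 and in Dicer cKO/ScxHt at 0.358. Osr1 and Prrx2 were called higher in ScxHt/Control, at 1.89 and 1.75, and lower in Dicer cKO/ScxHt. The list medians were 0.672 in Dicer cKO/Control, 0.931 in ScxHt/Control and 0.631 in Dicer cKO/ScxHt. Between these single libraries, Scx thus shared its place in Dicer cKO/Control, past the lower limit, with Egr1 and Sox9 but not with Mkx. The paper also measured tendon transcription factors and tendon matrix genes by real-time PCR in more mice and reports them as lower in Dicer cKO. Its assays include Tnmd, but its text gives no separate PCR result for Tnmd in these tendons. The paper names Scx, Mkx and Egr1 as downregulated against Control, whereas in the single libraries here Mkx, at 0.913, was not called.

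**Figure D5:**
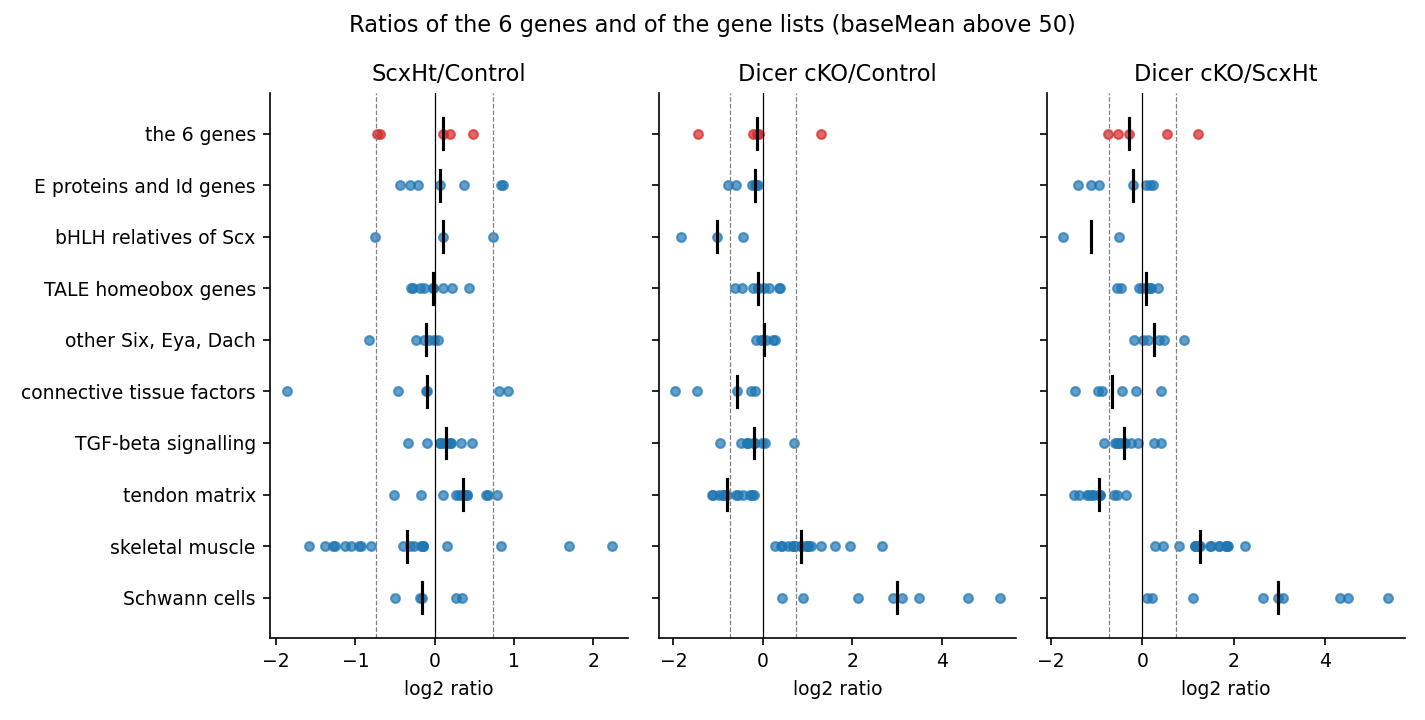
Log2 ratios of single genes with a baseMean above 50 (points) in the 3 comparisons for the 6 genes and 9 of the gene lists, with each median as a black bar, a line at 0 and dashed lines at ratios of 0.60 and 1.67. The ranges of the x axes differ between panels. In Dicer cKO/ScxHt the tendon matrix median is 0.518 and the skeletal muscle median 2.39 as ratios, and the 5 genes of the first row lie on both sides of 0.

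Genes of other cell types also differed between the libraries. All 6 macrophage genes passed the minimum. Of these, 5 were called higher in ScxHt/Control (median 1.76), none was called in Dicer cKO/Control (median 0.749), and all 6 were lower in Dicer cKO/ScxHt (median 0.440). Endothelial genes had medians of 0.693 in ScxHt/Control with none called, 1.10 in Dicer cKO/Control with none called and 1.63 in Dicer cKO/ScxHt with 2 of 6 called higher. All 5 erythroid genes were higher in Dicer cKO/Control (median 2.26) and in Dicer cKO/ScxHt (median 2.33), and none was called in ScxHt/Control (median 0.975). Of 7 cartilage genes past the minimum, 3 were lower in Dicer cKO/Control (median 0.791), 1 was higher in ScxHt/Control (median 1.0) and 4 were lower in Dicer cKO/ScxHt (median 0.551). The 6 adipocyte genes had a median of 1.0 in Dicer cKO/Control, 1.17 in ScxHt/Control and 0.926 in Dicer cKO/ScxHt, with Lep called lower in both comparisons of Dicer cKO. The lower Eya2 value in ScxHt stood beside the lower endothelial and muscle medians of that library, and their part in it was not tested.

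The genes with the most similar pattern were those nearest to each of the 6 in the pair of log2 ratios ScxHt/Control and Dicer cKO/Control, among 8401 genes with a baseMean above 200. With 3 libraries such a likeness has only 2 coordinates. Nearest to Scx were Klf2, with 736, 444 and 258 reads, and Klf4, with 2323, 1634 and 816 reads, both Krüppel-like zinc finger factors, followed by Spsb1. No gene lay within a distance of 0.1 of Scx, but Klf2 and Klf4 were just outside it, at 0.108 and 0.113. Scx stood at percentile 0.41 in Dicer cKO/Control, where genes are few, so this count says little of its pattern. Nearer to the middle of all genes, 480 genes lay within 0.1 of Mkx (nearest Btf3, Papolg and RP24-315N18.1) and 71 within 0.1 of Tnmd (nearest Atp10a, Mfsd11 and Slc15a4).

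For Eya1, 1 gene lay within 0.1, Mylpf, the fast skeletal muscle regulatory myosin light chain, with 3423, 3986 and 8158 reads. The next were the alpha-globin genes Hba-a1 and Hba-a2. For Eya2, 16 genes lay within 0.1, led by Rapgef3, Vegfa and Tppp. Vegfa, the vascular growth factor gene, had 1920, 1214 and 1624 reads. The genes nearest to Six2 were the fast muscle genes Mybph, Mybpc2 and Actn3, at distances of 0.311 to 0.494, but the position of Six2 rests on few reads.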

How the data were processed

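Total RNA of Achilles tendon was sequenced by the study as paired-end RNA-seq, 1 library per genotype. The authors mapped trimmed reads with TopHat and Bowtie2 to GRCm38 and assigned them with HTSeq, and the deposited raw counts were used here. Versions, annotation and strand setting are not given in the sources used here. The deposited RPKM values, made by the authors, were used to compare genes. In Control, 678 genes had a count of 0 but an RPKM above 0, so counts and RPKM do not match for every feature. Features with a count of 0 did not enter the ranks by RPKM. Of 54189 lines, 463 repeated an earlier line and were dropped.

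Counts were divided by DESeq2 1.42.0 median-of-ratios size factors (R 4.3.3) of the 2 libraries. Ratios, Clopper-Pearson and Poisson intervals at 95% and within-library odds ratios (conditional exact, or a normal approximation for the pairs with Fmod, Col1a1 and Ttn) used Python 3.11.15, scipy 1.17.1 and pandas 2.3.3, and figures matplotlib 3.10.9. No p-value was computed, since nothing estimates the spread between mice. The minimum baseMean was 50 and the limits 0.60 and 1.67. A count of 0 allows up to 3 reads. The calculation of ratios and intervals was tested on simulated counts with Poisson error only. These held no spread between mice and no PCR copies, so they do not test the ratios of these libraries.

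The genes, the 16 lists and the pairs were chosen with earlier results of these data known. Named are the 6 genes, list members past a limit or at a list's ends, the 3 nearest genes by pattern, and overlapping or neighbouring genes. Other genes given as examples were picked after their values were seen. A few list genes are counted in their lists but not reported singly here. Gene positions were read from GENCODE vM21 (GRCm38, pysam 0.24.0), as were 3′ UTRs, and the miRNA from RefSeq. Of the small RNA-seq data, only counts of Mir135a loci and totals were used. Alternatives were edgeR 4.0.16 TMM scaling, size factors over 3 libraries, total counts in 3 forms, a pseudocount of 1, repeated lines kept, other minimum values (10, 200 or none) and other limits (2 and 0.5, or the whole interval).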

Additional observations from a re-analysis of the deposited data

How the results depend on the processing

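No paired analysis was possible because each genotype had 1 RNA-seq library. Over 126 alternative values of the ratios of the 6 genes, all kept their side of 1, 120 stayed inside their counting interval (the other 6 were of Tnmd and Mkx), and the largest shift was 1.15-fold, for Six2 with a pseudocount of 1. Total counts moved the median log2 ratio of all genes in ScxHt/Control from 0.018 to 0.124, and ratios in that comparison are to be read against it. In Dicer cKO/Control, 2 genes were past the limits, and 1 with a baseMean above 200, since Eya1 is then not analysed. Of 5 intervals off 1 over all 6 genes, 3 remained with total counts, also without muscle markers, mitochondrial genes and features above 1% of a library, as those of Mkx and Tnmd then reach 1. In ScxHt/Control, none was past the limits, and 1 was with size factors over all 3 libraries and with TMM scaling (Eya2) and 1 with no minimum (Six2). In Dicer cKO/ScxHt, 2 were past the limits, and 1 with TMM scaling, with total counts without muscle markers, with limits of 2 and 0.5 and with the whole interval past the limit (Scx lost), and 1 with a baseMean above 200 (Eya1 not analysed). The order of the 6 genes was the same in TPM. Of 336 list medians, 314 stayed between the medians of their genes' interval bounds and 11 changed sign. The 5 to 20 reads of Six2 limit what its ratios can show.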
